A study of Mus musculus with 3 samples.

Results

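The genes of oxidative phosphorylation, the mitochondrial respiratory chain and ATP synthase, were examined in mouse astrocytes made from embryonic stem cells. Members were chosen by gene symbol alone, taking the nuclear genes whose symbols mark a subunit of complex I (Nduf), II (Sdh), III (Uqcr), IV (Cox) or V (Atp5). This gave 85 genes of 18194 measured, on 170 probe sets that are each annotated to 1 gene. They fall into 35 genes for complex I, 8 each for complexes II and III, and 17 each for complexes IV and V. The pattern for complex II also takes in 4 Sdhaf genes, which encode assembly factors and no subunits, and these are described apart. Another 7 genes that match the symbols, Ndufa11 and Ndufs6 among them, are read only by probe sets annotated to several genes and were not analysed here, so the 85 are not the full set of subunits.

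All 3 samples belong to 1 group, labelled wt, and the design holds no contrast. The stem cells were passed through embryoid bodies for 4 days and selected in ITSFn medium for 5 to 7 days, and the neural precursors were then grown with FGF2 and EGF2. After 18 passages the growth factors were withdrawn and 5% serum (FBS) was given for 5 days to yield astrocytes. Total RNA was measured on 1-colour Affymetrix mouse genome arrays, which read each gene by 1 or more probe sets. The labels do not state whether the 3 samples were separate cultures. The p-values therefore cover the variation among these arrays alone, part or all of which may be technical, and the small number of arrays limits the precision.

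The respiratory chain passes electrons from NADH (complex I) and succinate (complex II) through complex III to complex IV, which reduces oxygen, and complex V uses the resulting proton gradient to make ATP. Most subunits are encoded in the nucleus and a few in mitochondrial DNA, and some complex IV subunits exist as an isoform used in most tissues and another restricted to heart and skeletal muscle, testis, lung or oxygen-starved cells. Astrocytes are known for a high rate of glycolysis, but they also respire.

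Values are log2 signal of the brightest probe set of each gene. A gene was called above background when its signal lay above the 95th percentile of 78 chemosensory receptor genes (smell, pheromone and taste) by a one-sided, one-sample limma test with a Benjamini-Hochberg adjusted p below 0.05 over 18116 genes. This limit was 3.99, 4.10 and 4.07 log2 units on replicates 1, 2 and 3. A gene that did not pass is not above background, which does not make it absent. Probe sets differ in brightness, so the level of a gene is not ranked here against that of another. Median signals over all probe sets ran from 19.4 to 23.3 on the linear scale. Of the astrocyte markers 9 of 9 were above background, where 58.3% of all genes tested were. They ranged from the filament gene Gfap at 12.55, 12.58 and 12.76 to Aldh1l1 at 5.13, 5.43 and 5.80. Aldh1l1 passed on 1 of 2 probe sets. Markers of other cells were mostly not: 2 of 6 neuronal, 1 of 4 microglial and 1 of 8 pericyte and fibroblast genes passed. The neuronal genes that passed were Rbfox3 at 6.31, 6.85 and 6.83 and Tubb3 at 5.83, 5.18 and 6.48. When each gene took the median of its probe sets, the microglial and the pericyte and fibroblast counts were 0. Under that setting 7 of 9 astrocyte and 2 of 6 neuronal genes passed. In bulk RNA, fewer cells of a type and less RNA per cell cannot be told apart.

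Most of the 85 genes were above background. Of these 79 passed (92.9%, limma, adjusted p from 3.85e-05 to 0.0307), where 58.3% of all genes tested did. The median over the 85 genes was 6.97 log2 units above the limit, against 1.76 over all genes tested. All 8 genes of complex II, all 8 of complex III and all 17 of complex V passed, as did 33 of 35 for complex I and 13 of 17 for complex IV. The 6 genes that did not pass were Ndufb4 and 5 tissue-restricted isoforms, so outside those isoforms 76 of 77 genes were above background.

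**Figure D1:**
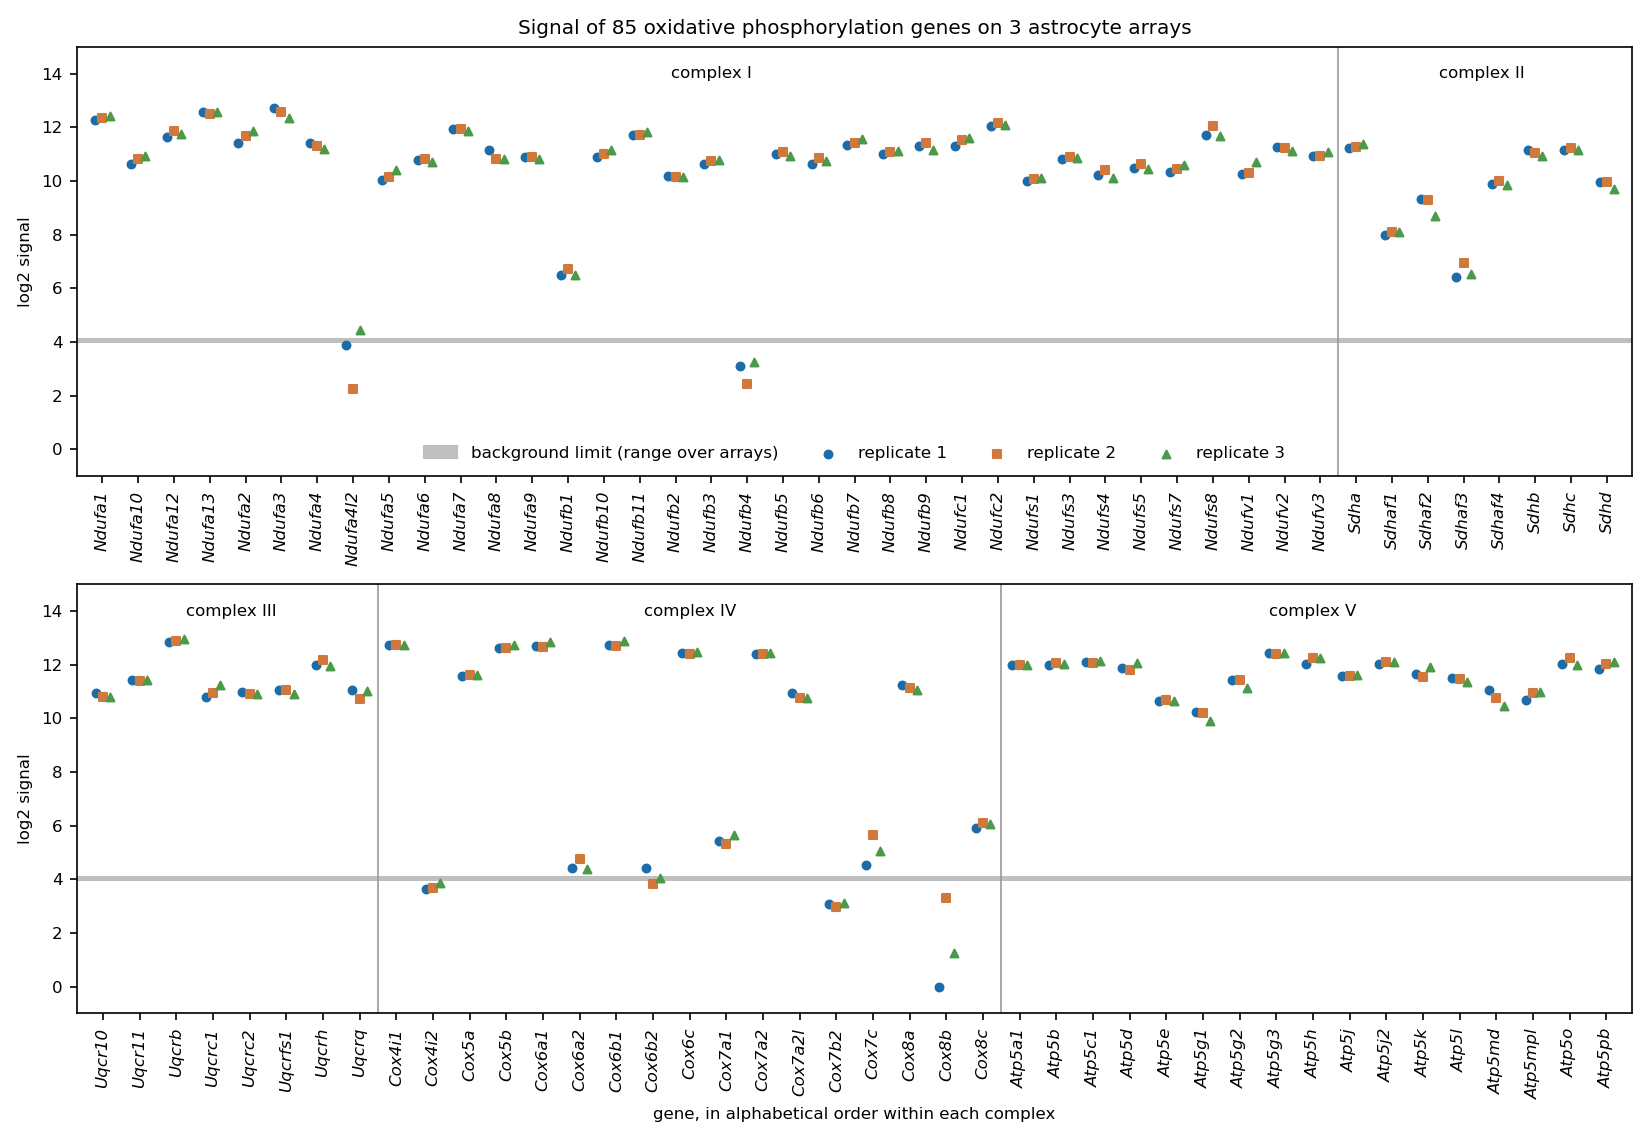
Log2 signal (vertical axis) of the 85 genes (horizontal axis, alphabetical within each complex) on the 3 arrays, with 1 symbol per replicate and the background limit as a grey band between 3.99 and 4.10. The symbols of most genes lie close together and far above the band, and the genes at or below it are Ndufb4, Ndufa4l2 and isoforms of complex IV.

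Complex I, the NADH dehydrogenase, was represented by 6 of its core subunits, and each was above background on all arrays (limma, adjusted p at most 3.88e-05). Ndufv1, the flavoprotein that takes electrons from NADH, was at 10.27, 10.30 and 10.71 on replicates 1, 2 and 3. Its partner Ndufv2, an iron-sulfur protein, was at 11.28, 11.23 and 11.11. Ndufs1, the large iron-sulfur subunit, was at 10.00, 10.06 and 10.10. Thus Ndufv1 was higher on replicate 3 than on the other two, and its SD of 0.25 was the largest among the complex I genes above background, while Ndufs1 hardly moved.

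Further along the complex I electron path, Ndufs3 was at 10.83, 10.88 and 10.87. Ndufs7, which carries an iron-sulfur cluster near the quinone site, was at 10.32, 10.44 and 10.60. Ndufs8, also an iron-sulfur subunit, was at 11.70, 12.05 and 11.66, with replicate 2 apart from the others.

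The accessory subunits of complex I surround this core and are needed for its assembly and stability. Ndufs4, whose loss causes a mitochondrial encephalopathy in mice and people, was at 10.23, 10.42 and 10.12. Ndufa12 was at 11.65, 11.87 and 11.77 and Ndufb9 at 11.32, 11.41 and 11.16. Ndufb2, at 10.18, 10.17 and 10.15, had the smallest SD among the complex I genes above background (0.02). The other 22 accessory genes all passed, with values from 6.50 to 12.74 on single arrays and SDs from 0.05 to 0.23. Among them Ndufb1, a gene named after its values were seen, was at 6.50, 6.73 and 6.50.

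Ndufb4 was the only member outside the tissue-restricted isoforms that did not pass. It was at 3.12, 2.42 and 3.24, below the limit on all 3 arrays (mean 2.93 ± 0.44 SD, n = 3; adjusted p = 1, limma). This value rests on 1 probe set. Other probe sets listed for Ndufb4 are annotated to several genes at once and were left out by the rule, so the value does not stand for the whole gene.

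Complex II, succinate dehydrogenase, is both a respiratory complex and an enzyme of the citric acid cycle, and all of its 4 subunits are nuclear. Sdha, the flavoprotein that oxidises succinate, was at 11.22, 11.29 and 11.38. Sdhb, the iron-sulfur subunit, was at 11.15, 11.04 and 10.94. The membrane anchor genes Sdhc and Sdhd were at 11.15, 11.22 and 11.15 and at 9.96, 9.95 and 9.69. All 4 were thus above the limit by at least 5.82 log2 units on average, and Sdhc had the smallest SD of the complex II genes (0.04).

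The 4 Sdhaf assembly factors were also above background. Sdhaf2, which helps attach the flavin to Sdha, was at 9.34, 9.29 and 8.69 (mean 9.11 ± 0.36 SD, n = 3; adjusted p = 7.65e-05, limma), with replicate 3 lower than the others and the largest SD of the complex II genes. Sdhaf3, an iron-sulfur assembly factor for Sdhb, was at 6.44, 6.93 and 6.55 (adjusted p = 0.000193, limma). Sdhaf1 and Sdhaf4 lay between 7.99 and 10.01 on single arrays. Sdhaf3 passed on 1 of 2 probe sets and lay at -0.12 log2 units from the limit when the median of its probe sets was used.

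Complex III, the cytochrome bc1 complex, hands electrons from ubiquinol to cytochrome c. Uqcrc1 and Uqcrc2, its large core proteins, were at 10.79, 10.96 and 11.25 and at 10.96, 10.92 and 10.92. Uqcrfs1, the Rieske iron-sulfur protein, was at 11.06, 11.04 and 10.91. Within this complex Uqcrc1 had the largest SD (0.23), with replicate 3 highest, and the small subunit gene Uqcr11 the smallest (0.02), at 11.42, 11.41 and 11.44.

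Uqcrq, another small subunit, was at 11.06, 10.74 and 11.03 on its brightest probe set. That was the only one of its 4 probe sets above background, and its name carries a suffix (_s_at) for possible binding to more than 1 transcript. Without such probe sets Uqcrq lay 0.24 log2 units above the limit and did not pass (adjusted p = 0.266, limma), and with the median of its probe sets it lay at -0.07. The remaining genes Uqcr10, Uqcrb and Uqcrh ranged from 10.79 to 12.98 on single arrays.

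Complex IV, cytochrome c oxidase, has nuclear subunits with 1 isoform for most tissues and others restricted to a few. Ndufa4 and its relative Ndufa4l2, counted under complex I by their symbols, are described with them. All 6 measured isoforms of the first kind were above background, with a median of 8.52 log2 units above the limit. Of 8 restricted isoforms 3 passed, with a median of -0.14 over the 8, against 58.3% of genes and a median of 1.76 over all genes tested. Cox7b, the form used in most tissues beside the testis form Cox7b2, was not analysed here. Isoforms of a family are read by different probe sets, so each is set against background and not against its partner.

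**Figure D2:**
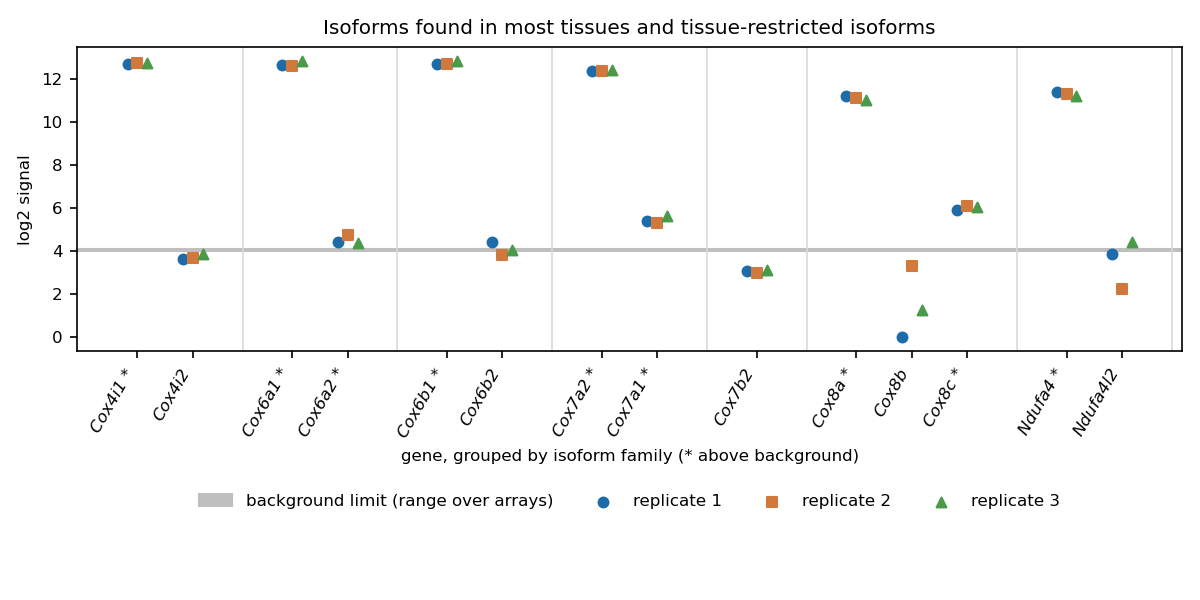
Log2 signal (vertical axis) of isoforms (horizontal axis, grouped by family) on the 3 arrays, with 1 symbol per replicate, the background limit in grey and an asterisk for genes above background. The first gene of each family, apart from Cox7b2, is the form used in most tissues, and each of these is above background. Of the restricted forms Cox6a2, Cox7a1 and Cox8c are above background, and the symbols of Cox6b2 and Ndufa4l2 lie on both sides of the limit.

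The isoform genes used in most tissues varied little between arrays. Cox4i1, which is needed for assembly of the complex, was at 12.74, 12.75 and 12.75, the smallest SD among the complex IV genes above background (0.01). Cox6a1 was at 12.68, 12.65 and 12.86, and Cox6b1, which faces the cytochrome c side, was at 12.73, 12.71 and 12.87. Both were highest on replicate 3. Cox7a2 was at 12.41, 12.38 and 12.44 and Cox8a at 11.25, 11.13 and 11.05. Ndufa4, named as a complex I gene but now known as a part of complex IV, was at 11.43, 11.32 and 11.21.

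Of the heart and skeletal muscle isoforms, Cox7a1 passed and Cox8b did not. Cox7a1 was at 5.42, 5.30 and 5.64 (mean 5.45 ± 0.17 SD, n = 3; adjusted p = 0.00106, limma). Cox8b was at -0.03, 3.29 and 1.25 and stayed below the limit on each array (adjusted p = 1, limma). Cox6a2, the third muscle form, was at 4.42, 4.75 and 4.38 (mean 4.52 ± 0.20 SD, n = 3) and passed narrowly (adjusted p = 0.0307, limma).

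The Cox6a2 call was not stable. Without replicate 1 the adjusted p was 0.0982 and without replicate 2 it was 0.197 (limma), and it was 0.0979 when the variance was allowed to follow the signal. The second Cox6a2 probe set was at 1.41, -1.27 and 1.65. Beside these isoforms, 3 of 10 other genes of heart and skeletal muscle were above background. These were Mb, which encodes myoglobin, at 5.82, 5.86 and 6.30, and the sarcomeric actin genes Acta1 at 5.45, 5.80 and 5.52 and Actc1 at 5.07, 4.97 and 4.37. The myosin and troponin genes Myh6, Myh7, Myl2, Tnnt2 and Tnni3 were not above background, and the part of muscle-like RNA in the isoform values was not tested.

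Among the testis isoforms Cox8c passed, at 5.89, 6.11 and 6.07 (mean 6.03 ± 0.12 SD, n = 3; adjusted p = 0.000225, limma). Its second probe set was at 4.34, 3.31 and 4.56 and did not pass. Cox6b2 was at 4.44, 3.83 and 4.03 and straddled the limit (adjusted p = 0.651, limma), and Cox7b2 was at 3.08, 2.98 and 3.13, below it on each array. None of 8 other genes of testis and germ cells was above background, among them Ldhc, the lactate dehydrogenase of sperm, at 2.81, 2.29 and -0.61, and 0 of the 8 had an unadjusted p below 0.05 (limma). Cyct, the testis form of cytochrome c, was at 3.66, 3.62 and 1.55.

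The isoforms linked to low oxygen were not above background. Cox4i2, also linked to lung, was at 3.65, 3.68 and 3.86, below the limit on each array. Ndufa4l2, a target of the hypoxia-inducible factors, was at 3.87, 2.25 and 4.44, with replicate 3 above the limit and the other two below it (adjusted p = 1, limma, for both genes). Of 8 other hypoxia response genes 6 were above background, against 58.3% of all genes tested. These were Adm, Bnip3, Egln3, Ndrg1 and Vegfa, with means from 6.06 to 8.73, and the glucose transporter gene Slc2a1 at 10.96, 11.23 and 11.45. Car9 and Ankrd37 did not pass.

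The complex IV subunits without such isoforms passed as well. Cox5a and Cox5b, both nuclear subunits that associate with the catalytic core, were at 11.59, 11.63 and 11.61 and at 12.61, 12.62 and 12.74. Cox6c, a small subunit, and Cox7a2l, a factor that joins complexes into supercomplexes, lay between 10.75 and 12.48 on single arrays. Cox7c stood apart, at 4.54, 5.66 and 5.04 (mean 5.08 ± 0.56 SD, n = 3; adjusted p = 0.0166, limma), the largest SD among all members above background. Its call was lost without replicate 2 (adjusted p = 0.0566) and without replicate 3 (adjusted p = 0.0751, limma), and its second probe set, at 3.39, 3.61 and 3.89, did not pass. The probe set that passed has the suffix _s_at, so the Cox7c value stands for these probe sets and not for the whole gene.

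The upstream sequences of isoforms from the Cox6a, Cox7a and Cox8 families are shown to set forms used in most tissues beside the muscle forms Cox7a1 and Cox8b, of which the first was above background and the second was not. The 120 bases before the annotated start are given 5′ to 3′ from RefSeq (GRCm38.p6). Capitals mark matches on either strand to the consensus of NRF1, a regulator of respiratory genes, or to CCGGAAG, letters bound by ETS factors such as GABP. Only matches that lie wholly within the printed bases are marked. Cox8a has a CCGGAAG match in the 300 bases around its start that is not marked for this reason. The printed bases run over chr5:115348959-115349078 (minus strand) for Cox6a1, chr9:79759854-79759973 (minus) for Cox7a2 and chr7:30184051-30184170 (plus) for Cox7a1. For Cox8a they run over chr19:7217617-7217736 (minus) and for Cox8b over chr7:140900447-140900566 (minus).
Cox6a1: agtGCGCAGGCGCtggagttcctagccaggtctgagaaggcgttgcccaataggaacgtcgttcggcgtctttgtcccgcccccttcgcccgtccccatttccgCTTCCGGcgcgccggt
Cox7a2: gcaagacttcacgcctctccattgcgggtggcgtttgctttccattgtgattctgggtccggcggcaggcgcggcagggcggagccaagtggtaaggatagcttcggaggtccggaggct
Cox7a1: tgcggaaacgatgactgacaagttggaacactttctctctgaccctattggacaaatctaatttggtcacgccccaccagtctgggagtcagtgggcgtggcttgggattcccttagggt
Cox8a: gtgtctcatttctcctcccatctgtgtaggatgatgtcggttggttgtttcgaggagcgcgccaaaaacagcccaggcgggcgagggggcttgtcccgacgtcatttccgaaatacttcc
Cox8b: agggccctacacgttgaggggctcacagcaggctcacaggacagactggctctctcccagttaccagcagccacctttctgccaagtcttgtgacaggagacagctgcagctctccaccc

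In 300-base windows around the start (250 bases before it and 50 after), the CG dinucleotide occurred 32 times for Cox6a1, 20 for Cox7a2, 19 for Cox8a, 17 for Cox6b1 and 14 for Ndufa4. It occurred 7 times for the muscle form Cox7a1 and 2 times for the muscle form Cox8b. The testis forms Cox6b2 and Cox7b2 each had 10. The median over all 32807 windows was 7. The isoform genes Cox4i1, Cox4i2, Cox6a2, Cox8c and Ndufa4l2 had no window. These counts describe the windows and say nothing of which factors bind there.

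Complex V, ATP synthase, was above background throughout. On their brightest probe sets its alpha, beta and gamma subunits varied little between arrays. The median SD over its 17 genes was 0.123, against 0.099, 0.095, 0.080 and 0.101 for complexes I, II, III and IV. Atp5a1 and Atp5b, the alpha and beta subunits of the catalytic head, were at 12.01, 11.99 and 11.99 and at 11.998, 12.08 and 12.03. Atp5c1, the gamma subunit of the central stalk, was at 12.11, 12.07 and 12.14 on a probe set with the suffix _s_at. The second Atp5c1 probe set read 4.53, 5.48 and 6.48 and passed, so without the first the gene lay 1.45 instead of 8.05 log2 units above the limit. Atp5a1 had an SD of 0.01, and Atp5j, which encodes a peripheral stalk protein, had the smallest SD of the 79 genes (0.005), at 11.59, 11.60 and 11.60.

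The rotor ring of ATP synthase is made of c subunits, whose mature protein is encoded by Atp5g1, Atp5g2 and Atp5g3 with different import sequences. All of them were above background. Atp5g1 was at 10.25, 10.18 and 9.89, and Atp5g2 at 11.43, 11.43 and 11.13. Atp5g3 was at 12.45, 12.39 and 12.46. Replicate 3 was the lowest array for Atp5g1 and Atp5g2. For Atp5g3 replicates 1 and 3 were nearly equal, at 12.448 and 12.456. Differences between arrays were not tested.

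Atp5md, a small membrane subunit, varied most within complex V, at 11.04, 10.76 and 10.46 (mean 10.75 ± 0.29 SD, n = 3; adjusted p = 4.22e-05, limma). The other 9 genes of complex V lay between 10.65 and 12.27 on single arrays, with SDs from 0.02 to 0.19.

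Different probe sets of a gene did not always give the same call. Of the 170 probe sets 145 were above background (85.3%), against 52.2% of all probe sets tested. Of the 50 genes with several probe sets, 36 had all of them above background and 14 did not: Atp5g2, Cox5b, Cox6a2, Cox7c, Cox8a, Cox8c, Ndufa12, Ndufb2, Ndufb9, Ndufs4, Ndufs8, Sdha, Sdhaf3 and Uqcrq. Of the 25 probe sets that did not pass, 3 had such a suffix (_x_at or _s_at), as did 46 of all 170.

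**Figure D3:**
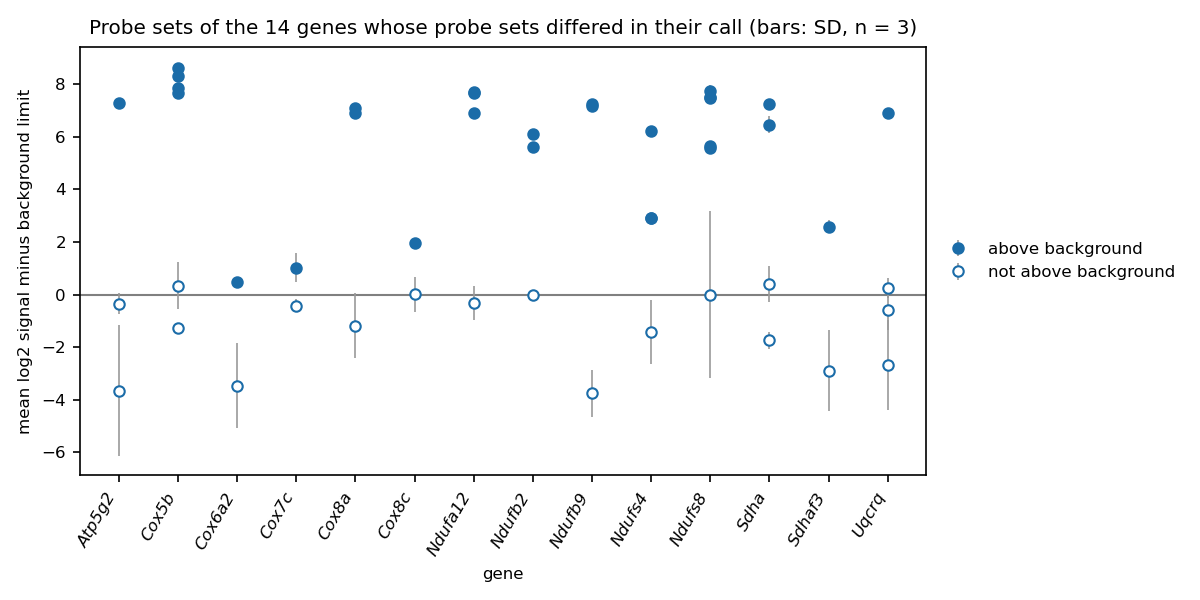
Mean log2 signal minus the background limit (vertical axis) for each probe set of the 14 genes whose probe sets differed in their call (horizontal axis), with SD bars over the 3 arrays. Filled points are above background and open points are not, and for each gene except Cox6a2, Cox7c, Cox8c and Ndufs4 they are more than 5 log2 units apart.

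Ndufs8 had the probe set that differed most between arrays. It read 0.41 on replicate 1 and 5.63 and 6.12 on replicates 2 and 3, while the other 5 probe sets of Ndufs8 were all above background. For Atp5g2 the probe sets that did not pass were at -2.01, 0.28 and 2.95 and at 3.62, 3.36 and 4.14. For Sdha they were at 2.66, 2.23 and 2.06 and at 4.81, 4.90 and 3.66. For Ndufa12 the probe sets above background carry such a suffix, and without them it lay at -0.31 log2 units from the limit. Many respiratory chain genes have processed pseudogenes, which probe sets of this kind may also read.

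The members were steady between arrays. Their median SD was 0.10 log2 units over the 79 genes above background, against 0.24 over all 10570 genes above background and 0.16 over the 556 of these whose mean lay in the middle range of the members (10.73 to 11.95, the 25th to 75th percentile). On the deposited scale an SD below 0.2 was found for 70 members (88.6%), for 39.8% of all genes above background and for 64.9% of the genes of like signal. After quantile normalization it was found for 78.5% of the members and 52.9% of all genes above background, with median SDs of 0.106 and 0.190. For genes of like signal no share was computed after quantile normalization. The 556 genes include the members in that range, while the 79 members also include brighter and dimmer genes. The difference between these shares was not tested.

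The arrays did not differ in these genes as they did in the bulk of genes. On the deposited scale the median gene above background deviated from its own mean by -0.18, 0.02 and 0.16 log2 units on replicates 1, 2 and 3. For the members these medians were -0.03, 0.01 and 0.01, and for genes of like signal -0.12, 0.01 and 0.11. Relative to all genes the members therefore lay 0.15 higher on replicate 1 and 0.16 lower on replicate 3, and within 0.003 on replicate 2. Replicate 3 was the highest array for 36 members (45.6%) and for 64.3% of all genes above background.

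The sign of the members' own deviation depended on the scale. After quantile normalization their medians were 0.06, -0.01 and -0.06, opposite to the deposited scale on all 3 arrays, and those of all genes were -0.04, -0.04 and 0.09. Relative to all genes the members were then 0.10 higher on replicate 1 and 0.15 lower on replicate 3, the same directions as before, and 0.04 higher on replicate 2. With 3 arrays of 1 group no test between arrays was made, and the part of array scale and brightness in this pattern was not tested.

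**Figure D4:**
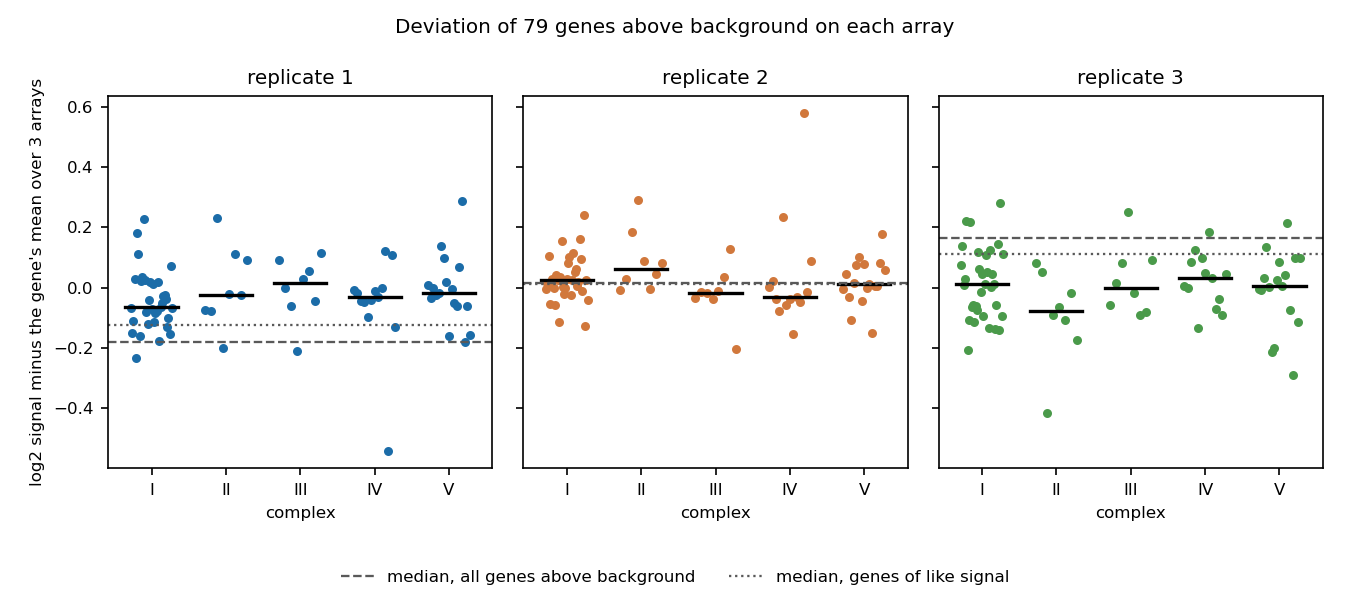
Log2 signal minus the gene's own mean (vertical axis) for the 79 genes above background, by complex (horizontal axis) and array (panels), on the deposited scale. Points are genes, black bars are medians per complex, and the dashed and dotted lines are medians of all genes above background and of genes of like signal. On replicate 1 the dashed line lies at -0.18 below each bar, and on replicate 3 at 0.16 above each bar.

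By complex, the median deviations on replicate 1 were -0.07 for complex I, -0.02 for complex II, 0.01 for complex III, -0.03 for complex IV and -0.02 for complex V. On replicate 3 they were 0.01, -0.08, -0.001, 0.03 and 0.01. Each complex thus lay above the all-gene median on replicate 1 and below it on replicate 3.

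The promoters of the members were compared with those of all genes for letters of known regulators. RefSeq windows of 300 bases (GRCm38.p6) were found for 70 of the 85 genes, as 75 windows among 32807, and both strands were searched. The NRF1 consensus (the first run of capitals in Cox6a1, with any base at its sixth position) occurred in 24.0% of member windows and 4.59% of all windows. The ETS letters CCGGAAG occurred in 26.7% and 8.86%. The YY1 letters AAGATGGCG occurred in 8.0% (6 of 75 member windows) and 1.4%. TCAAGGTCA, the site of the estrogen-related receptors, occurred in 2.67% (2 of 75 member windows) and 0.424%. GGGCGG, read by Sp factors, occurred in 44.0% and 35.6%, and the TATA letters TATAAA in 13.3% and 13.6%. Member windows also held more CG dinucleotides, with a median of 19 against 7, and the part of CG content in these shares was not tested. The 6 motifs may overlap, and a match is not evidence of binding.

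The NRF1 consensus lay in the windows of 17 genes, with 5 in complex I, 4 in complex II, 1 in complex III, 1 in complex IV and 6 in complex V. Those in complex II were the subunit genes Sdha and Sdhd and the assembly factor genes Sdhaf3 and Sdhaf4. These counts were not set against the number of windows of each complex. One upstream match for each of complexes I, II and V is shown with 25 bases on each side, and capitals mark the match. They lie on the minus strand at chr6:24527682-24527741 for Ndufa5, chr13:74350304-74350363 for Sdha and chr15:102671055-102671114 for Atp5g2.
Ndufa5: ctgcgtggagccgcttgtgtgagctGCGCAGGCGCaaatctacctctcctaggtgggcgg
Sdha: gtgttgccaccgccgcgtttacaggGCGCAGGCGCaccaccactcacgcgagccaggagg
Atp5g2: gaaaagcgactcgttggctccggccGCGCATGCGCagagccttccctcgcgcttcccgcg

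Other genes of the pathway were above background in most cases, where 58.3% of all genes tested were. Of 18 regulators of mitochondrial biogenesis and mitochondrial DNA 17 passed, among them Ppargc1a, a coactivator of respiratory genes, at 7.20, 7.64 and 7.94, Nrf1 at 6.30, 6.05 and 5.63 and Gabpa at 7.96, 8.42 and 8.40. Tfam, which packages mitochondrial DNA, was at 8.24, 8.48 and 8.48. Esrrg, a nuclear receptor of oxidative tissues, was at 3.64, 3.99 and 3.29 and was the regulator that did not pass.

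Of 35 assembly factors outside the members 34 passed, including Surf1, needed for complex IV, at 9.36, 9.13 and 9.32. Lyrm7, which serves complex III, was at 0.66, 0.53 and 1.98 and did not. All 11 measured genes of coenzyme Q synthesis and all 13 of the citric acid cycle were above background, against 58.3% of all genes tested. Replicate 3 was the highest array for Cs, citrate synthase, at 10.67, 10.72 and 11.04.

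Among 12 other nuclear subunit and carrier genes 8 passed, against 58.3% of all genes tested. Cyc1, the cytochrome of complex III, was at 10.92, 10.74 and 11.01, and Cycs, cytochrome c, at 11.31, 11.65 and 11.33. The ADP and ATP exchangers Slc25a4 and Slc25a5 were at 12.32, 12.26 and 12.28 and at 12.31, 12.32 and 12.22. Those that did not pass were Cyct, the testis exchanger Slc25a31 at 2.89, 3.36 and 2.29, and the uncoupling proteins Ucp1 at -0.11, 0.06 and 0.48 and Ucp3 at 4.58, 3.62 and 3.04. None of 3 brown fat markers, Ucp1 among them, was above background (limma), 0 of 3 had an unadjusted p below 0.05, and 1 of 3 passed with the limit at the 90th percentile. The mitochondrially encoded complex I gene ND5, the single gene of its kind measured here, was at 13.08, 13.09 and 13.10.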

How the data were processed

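Signal was measured in 3 samples of 1 group on Affymetrix mouse genome arrays. The deposited table holds 1 linear intensity per probe set and array. GCOS 1.4 is named in the submitters' processing notes. Its scaling target and background settings were not given in the sources used. Of 45101 probe sets, 34958 have 1 gene in the platform annotation, 932 have several and were left out, and 9211 are not named here. Log2 was taken with no pseudocount, and each gene took its probe set with the highest mean. Genes were tested against the limit of each array with limma 3.58.1 in R 4.3.3, and probe sets likewise. The procedure was tested on simulated data. Members, gene lists, markers and the rule for named genes were chosen with earlier results of these data known. Named with every value were core subunits, isoforms, genes not above background, the SD extremes of each complex and genes whose probe sets differ in call. The other pathway and marker genes and Ndufb1 were picked as examples after their values were seen. Alternatives covered the limit, probe set rule, normalization, pseudocount, variance model, dim genes and each replicate.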

Additional observations from a re-analysis of the deposited data

How the results depend on the processing

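Of the 85 genes, 72 to 79 were above background under the 8 alternatives that kept all 3 arrays and 77 to 78 when 1 replicate was left out. The count of 72 came from the run without probe sets named _x_at or _s_at. Atp5d, Atp5e, Ndufa13 and Ndufa2 have no other probe sets, so they were not measured in that run and count as not passing. The counts per complex, per isoform class and over the pathway lists stayed within 1.5 times of those reported under each alternative run. Marker counts moved by more than this for brown fat (1 of 3 at the 90th percentile limit) and for microglia and for pericytes and fibroblasts (0 each with the median of probe sets). Heart and skeletal muscle genes fell to 2 of 10 at the 99th percentile limit, with the median of probe sets, and without replicate 1 or 2. Astrocyte genes fell to 7 of 9 with the median of probe sets. Neuronal genes rose to 3 of 6 at the 90th percentile limit and with dim genes left out. Hypoxia response genes fell to 5 of 8 without probe sets named _x_at or _s_at. When a gene took the median of its probe sets, Atp5g2 lay at -0.32, Cox6a2 at -1.47, Sdhaf3 at -0.12 and Uqcrq at -0.068 log2 units from the limit. Without probe sets named _x_at or _s_at Cox7c lay at -0.42 and Ndufa12 at -0.31. With the limit at the 99th percentile Cox6a2 (adjusted p = 0.628) and Cox7c (adjusted p = 0.0848, limma) lost their calls, and Cox7c also with the median of its probe sets (adjusted p = 0.164). The restricted isoforms above background numbered 2 to 3. The cause of these changes was not tested beyond the choice of probe sets or limit itself. The median SD of the members ran from 0.06 to 0.09 with 1 replicate left out. No paired analysis was possible because all 3 samples form 1 group. Signal near background limits the reading of Cox6a2, Cox6b2, Cox7c and Ndufa4l2.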
